A study of Mus musculus with 2 samples.

Results

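Transcription factors that set the fate of lymphocytes were followed across the B, T and NK cells of the mouse spleen: Id2, Id3, Tcf7, Lef1, Bach2, Eomes, Tbx21, Zeb2, Zbtb20 and Klf2. They were taken by symbol, 10 of the 32285 genes in the deposited feature lists, and all 10 were found. The genes were chosen by measured values of these same libraries, among them the higher Id3 level in Glutoborin B and CD8 T cells, so the comparisons are a description and carry no test. The cells came from wild-type mice given 10000 iRBCs by the intraperitoneal route, a term the labels do not spell out beyond calling it an infection. The mice then received Vehicle or Glutoborin, a compound not described further in the labels, on days 2 and 4, and spleens were taken on day 5. Sorted CD45+ cells, the leukocytes, went into 1 droplet library per group with a kit that reads the 3' end of transcripts. The number of mice behind a library was not given in the sources used here. With 1 library per group no spread between animals can be measured. All intervals are exact 95% intervals of counting error only, and all log2 ratios are Glutoborin over Vehicle.

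Lymphocytes keep or leave the resting state under factors that work in opposed pairs. Id2 and Id3 lack a DNA-binding region and hold the E proteins Tcf3, Tcf4 and Tcf12 away from the E-box sites that these bind. Tcf7 (which encodes TCF1) and Lef1 are HMG-box factors of naive and memory T cells, whereas the T-box factors Eomes and Tbx21 (T-bet), with the zinc finger repressor Zeb2, drive effector T cells and NK cell maturation. Bach2 restrains effector and plasma cell genes, Klf2 sustains quiescence and exit from lymphoid organs, and Zbtb20 is a BTB zinc finger factor known from B-1 and plasma cells.

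The Vehicle library held 48526451 UMIs (unique molecular identifiers, which count RNA molecules) in 8204 barcodes, and the Glutoborin library 56862506 in 9646. Quality filters left 6493 Vehicle cells at a median of 5688 UMIs and 8906 Glutoborin cells at a median of 4811. A mitochondrial share of 10% or more took out 18.5% of Vehicle barcodes but 4.07% of Glutoborin barcodes. The libraries shared 24 barcodes, 20 of them among kept cells. No member was used to cluster or name cells, and each name means a likeness by markers. The B cells named here carried all 6 B cell markers, the regulatory T cells all 5 of theirs and the NK cells all 8, in both libraries. Levels are in CPM: a gene's UMIs for every 1000000 UMIs summed over a class or subset in 1 library. Sums over genes induced by interferon stood lower in Glutoborin throughout: of 12 listed, 12 were at least 1.5-fold lower in B cells, 11 in CD4 T cells, 11 in CD8 T cells, 5 of 10 measured in regulatory T cells and 9 of 9 measured in NK cells. Their part in the values below was not tested.

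Across 5 classes, 41 pairs of member and class were measured, with at least 50 UMIs over both libraries, and 7 of them differed by 1.5-fold or more. Id3 was higher in Glutoborin B and CD8 T cells. Tcf7, Lef1 and Zbtb20 were higher in Glutoborin NK cells. Tbx21 and Tcf7 were lower in Glutoborin B cells, at levels of at most 3.39 CPM. In B cells 3 of 9 measured members passed 1.5-fold, where 5.8% of 10596 measured genes did; 1 was higher (2.47% of all genes) and 2 were lower (3.33%). In NK cells 3 of 9 passed against 11.3% of 6471 genes, 3 higher (6.35%) and 0 lower (4.96%). In CD8 T cells 1 of 9 passed against 4.87% of 9010 genes, 1 higher (1.89%) and 0 lower (2.99%). In CD4 T cells 0 of 7 passed against 5.63% of 8647 genes, with 2.56% higher and 3.08% lower over all genes. In regulatory T cells 0 of 7 passed against 7.9% of 4164 genes, with 2.67% higher and 5.24% lower over all genes. The median log2 ratio over the measured members was -0.28 in B cells, 0.08 in CD4, -0.02 in CD8 and -0.16 in regulatory T cells, and 0.01 in NK cells, beside medians of 0.02, 0.01, -0.04, -0.05 and 0.01 over all measured genes. Because the choice of members used these comparisons, nothing further is read from the counts.

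**Figure D1:**
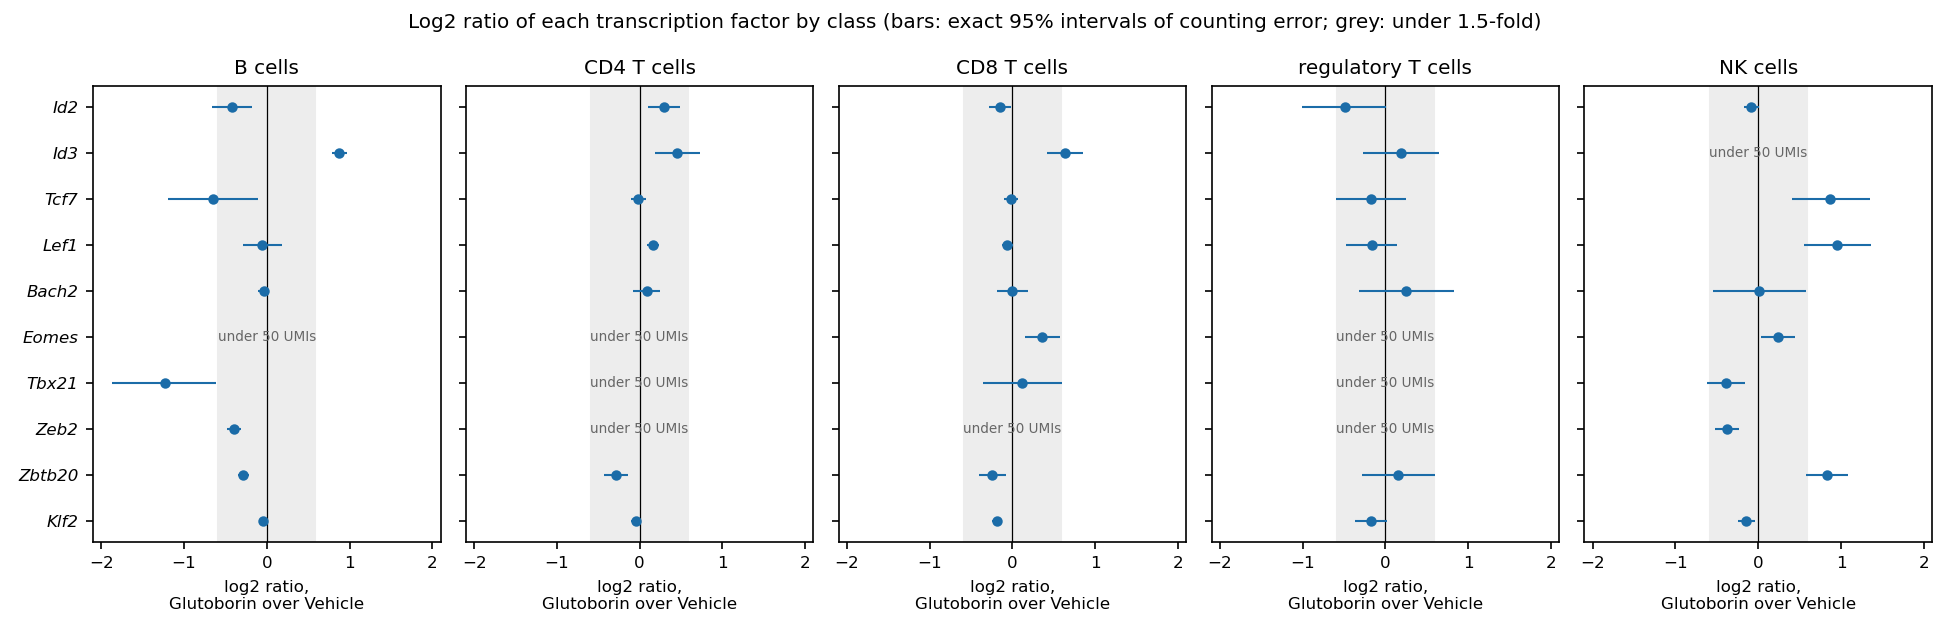
Log2 ratio of each of the 10 factors (rows) in 5 classes (panels), with exact 95% intervals of counting error as bars and the range under 1.5-fold in grey. Id3 lies to the right in B cells at 0.88 and in CD8 T cells at 0.63, and Tcf7, Lef1 and Zbtb20 pass 1.5-fold to the right only in the NK panel, at 0.87, 0.95 and 0.83.

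Id3, the Id protein of naive and follicular B cells (ENSMUSG00000007872, chromosome 4, 136143497 to 136145755, plus strand, GRCm38), was higher in B cells of the Glutoborin library. Its 1378 Vehicle UMIs made 70.7 CPM (67.0 to 74.6) and its 3252 Glutoborin UMIs made 130.1 CPM (125.7 to 134.6), a log2 ratio of 0.88 (0.79 to 0.97). The intervals did not overlap. After each cell was thinned to 2000 UMIs, which left out 58 and 52 shallower cells, 12.7% of Vehicle (11.6 to 13.8%) and 21.9% of Glutoborin B cells (20.8 to 23.1%) held an Id3 UMI. Before thinning the shares were 26.7% and 37.9%, at medians of 4728.5 and 4102 UMIs per cell. Monocytes, a myeloid type set beside them as background, held an Id3 UMI in 5.14% and 2.90% of thinned cells, at medians of 11423 and 11538 UMIs. By CPM the monocytes stood the other way, at 18.7 in Vehicle and 23.4 in Glutoborin, from 62 and 56 UMIs. Their log2 ratio was 0.32, with an interval that reached no difference (-0.22 to 0.87). More cells carried the transcript in Glutoborin B cells although these were the shallower cells.

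The difference was spread over the B cell subsets. Follicular B cells, the main recirculating subset, stood at 71.5 CPM in Vehicle and 133.3 in Glutoborin, a log2 ratio of 0.90 (0.79 to 1.01). Marginal zone B cells, which sample blood-borne antigen, stood at 33.3 and 74.6 CPM, for a log2 ratio of 1.16 (0.80 to 1.54). B-1 cells, makers of natural antibody, stood at 61.0 and 91.2 CPM, for a log2 ratio of 0.58 (0.05 to 1.12). The 3 B clusters with no subset name together stood at 103.7 and 169 CPM, for a log2 ratio of 0.70 (0.51 to 0.90). Dividing B cells differed from the rest, with 77.4 CPM in Vehicle and 53.7 in Glutoborin, from 62 and 74 UMIs and a log2 ratio of -0.53 (-1.03 to -0.02). They are cluster B19, with Car1, Gzmb and Car2 among its leading genes beside genes of cell division. Whether that cluster holds B cells only was not tested.

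The 2 libraries filled the B clusters unevenly, so Id3 was also read within each. Clusters with at least 3 genes of interferon-inducible families among their 10 leading genes (B1, B8, B15 and B18) held 384, 464, 320 and 38 Vehicle cells against 156, 232, 261 and 5 Glutoborin cells. Cluster B7, led by Pxdc1 and Tmem108, held 56 Vehicle and 503 Glutoborin cells, and cluster B0, led by Neurl3 and Ccr7, 148 and 556. Among the 16 clusters with at least 30 cells in each library and enough Id3 UMIs, Id3 was higher in Glutoborin in all 16, by 1.5-fold or more in 9, and the interval stayed above no difference in 12. The log2 ratios ran from 0.30 in B0 to 1.16 in the marginal zone cluster B2, with a median of 0.63. With every cluster given the same weight in both libraries, the B cell ratio was 0.67 in place of 0.88, so part of the summed difference lay in the mix of clusters. Without those 4 clusters it was 0.85.

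**Figure D2:**
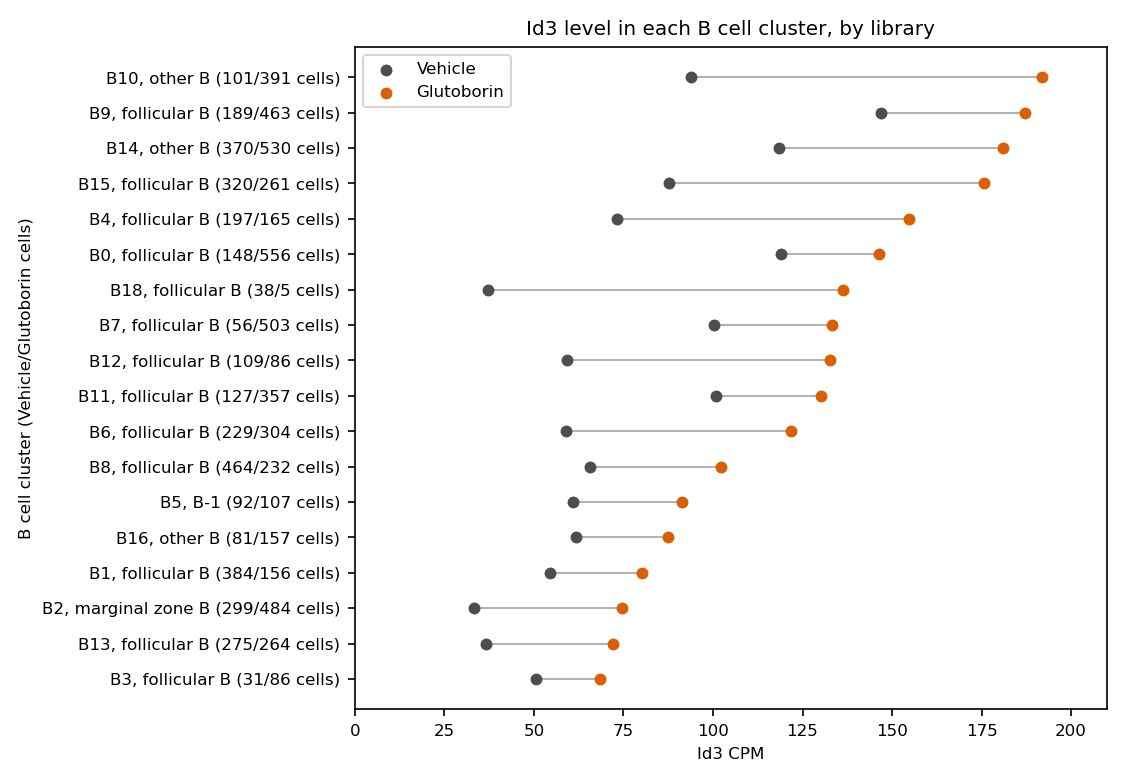
Id3 level in CPM (x axis) in 18 B cell clusters (rows, with Vehicle and Glutoborin cell numbers), 1 point per library joined by a line. The Glutoborin point lies to the right in each of the 18 clusters, for example at 146.4 against 119 CPM in B0 and 74.6 against 33.3 CPM in B2; cluster B18 rests on 5 Glutoborin cells.

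In T cells Id3, which supports naive and memory T cells, differed by subset. CD8 T cells stood at 42.5 CPM (37.5 to 48.0) in Vehicle and 65.7 (60.3 to 71.5) in Glutoborin, a log2 ratio of 0.63 (0.41 to 0.85). Memory CD8 T cells stood apart most, at 56.5 and 106.8 CPM, for a log2 ratio of 0.92 (0.57 to 1.27). Naive CD8 T cells stood at 27.4 and 34.9 CPM, for a log2 ratio of 0.35 whose interval reached no difference (-0.00 to 0.70). Whether the memory and naive ratios differ was not tested. Thinned CD8 T cells held an Id3 UMI in 6.17% of Vehicle cells (4.58 to 8.10%) and 10.0% of Glutoborin cells (8.31 to 11.9%). Over 11 alternatives the CD8 ratio lay between 0.52 and 0.74 and passed 1.5-fold in 7. The CD4 T class stood at 36.9 and 50.6 CPM, for a log2 ratio of 0.45 (0.18 to 0.73), with naive CD4 T cells at 0.82 (0.48 to 1.16) and activated or memory CD4 T cells at -0.32 (-0.81 to 0.17). In that last subset 10 cells held 77.6% of the Vehicle and 60% of the Glutoborin Id3 UMIs, so its value rests on few cells. Regulatory T cells stood at 90.8 and 103.4 CPM, a ratio within counting error at 0.19 (-0.28 to 0.65).

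The lowest Id3 levels were in NK cells, with 16 and 12 UMIs (10.2 and 6.08 CPM), and in NKT-like T cells, with 5 and 10 UMIs (5.79 and 13.4 CPM). By the mean of both libraries the highest were in a CD8 T cluster led by Myb and Sox4, at 113.7 and 177.3 CPM, and in the unnamed B clusters, while in Vehicle alone activated or memory CD4 T cells stood highest at 127.5 CPM.

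Id2, which NK cells and innate lymphocytes need to develop (ENSMUSG00000020644, chromosome 12, 25093799 to 25097140, minus strand), ranked highest where Id3 ranked lowest. NKT-like T cells, innate-like cells marked by Zbtb16 and Cxcr6, stood highest at 1579 CPM in Vehicle and 1428 in Glutoborin, and NK cells next at 1181 and 1115. Outside these 2 subsets the highest of the 14 subsets reached 233.2 CPM. Apart from dividing B cells, at 96.1 and 63.1 CPM, B cell subsets stood lowest. Follicular B cells stood at 11.2 and 8.57 CPM and B-1 cells at 24.9 and 7.69. The NKT-like cluster had Tcrg-C1 and Tcrg-C2 among its 10 leading genes, and 6 gamma-delta T markers summed to 278 Vehicle and 224 Glutoborin UMIs in it. Over the 14 subsets with at least 50 cells in each library, Id2 and Id3 correlated at a Pearson r of -0.70, on log2(CPM + 10) averaged over both libraries. These points share their libraries and some share cells of 1 lineage, so this is a description.

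Between the libraries Id2 differed by under 1.5-fold in each class. The lowest ratio was in regulatory T cells, -0.49 from 81 and 58 UMIs, with an interval that reached no difference. It passed 1.5-fold in 3 of 11 alternatives and was -1.40 without the 10 richest cells of each library. The NK ratio was -0.08 (-0.17 to 0.01) from 1861 and 2201 UMIs. In B cells, where Id2 was low, 14.9 and 11.2 CPM gave -0.42 (-0.66 to -0.18). In CD8 T cells 132.3 and 118.9 CPM gave -0.15 (-0.29 to -0.02). CD4 T cells went the other way, with 75.2 and 92.6 CPM and a ratio of 0.30 (0.11 to 0.49), but at a mitochondrial limit of 25% the CD4 ratio was -0.12.

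The E proteins that Id2 and Id3 bind, where measured, differed by under 1.5-fold in B, CD8 T and regulatory T cells. Of the 5 listed E and Id genes, 3 were measured in B cells and none passed 1.5-fold, beside 5.8% of all genes. Tcf3, which encodes E2A, had 1647 and 2499 UMIs in B cells, a log2 ratio of 0.24 (0.15 to 0.33), and Tcf12, which encodes HEB, at 103.2 and 103 CPM. Tcf4, which encodes E2-2, was 1.5-fold higher in Glutoborin NK cells at 0.63 (0.21 to 1.05) and 1.5-fold lower in CD4 T cells at -0.61, where only 55 and 41 UMIs were counted. It was 1 of 3 genes measured in each, beside 6.35% of all genes higher in NK and 3.08% lower in CD4 T cells. In CD8 and regulatory T cells none of the measured 3 and 2 genes passed 1.5-fold, beside 4.87% and 7.9% of all genes. With so few genes, none past 1.5-fold is not particular to them. Id1 had at most 8 UMIs in any class and library, and Id4 had 0.

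Tcf7 (ENSMUSG00000000782, chromosome 11, 52252371 to 52283014, minus strand) and Lef1 (ENSMUSG00000027985, chromosome 3, 131110471 to 131224356, plus strand) marked the T cells together. Their levels over the 14 subsets correlated at r = 0.972, and of the 4358 genes compared Lef1 was the one most like Tcf7. Lef1 was highest in naive CD4 T cells, at 651.3 CPM in Vehicle and 735 in Glutoborin, followed by naive CD8 T cells at 623 and 593.9. Tcf7 was highest in the Myb and Sox4 CD8 cluster, at 437.6 and 438.6 CPM, and in activated or memory CD4 T cells, at 468.2 and 381.8; the order of these 2 subsets differed between the libraries. Regulatory T cells stood lower than the other CD4 cells for both genes, with Tcf7 at 122.3 and 108.3 CPM and Lef1 at 227.7 and 203.3.

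In the CD4 and CD8 T classes both genes were close to level between the libraries. Tcf7 ratios were -0.01 (-0.11 to 0.08) in CD4 and -0.02 (-0.11 to 0.07) in CD8 T cells. Lef1 ratios were 0.16 (0.09 to 0.23) in CD4 and -0.06 (-0.13 to 0.00) in CD8 T cells. Memory CD8 T cells had Tcf7 at 232.1 and 275 CPM, a ratio of 0.24 (0.06 to 0.43). Activated or memory CD4 T cells had the opposite sign at -0.29 (-0.54 to -0.05). The Myb and Sox4 CD8 cluster had Lef1 lower in Glutoborin, at 584.2 and 442.3 CPM and -0.40 (-0.65 to -0.15).

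NK cells differed from the T cells in these genes. Tcf7 stood at 35.5 CPM (26.8 to 46.1) in Vehicle and 64.9 (54.1 to 77.1) in Glutoborin NK cells, from 56 and 128 UMIs, a log2 ratio of 0.87 (0.40 to 1.35). Lef1 stood at 47.0 (36.9 to 58.9) and 90.7 CPM (77.9 to 105), from 74 and 179 UMIs, a ratio of 0.95 (0.55 to 1.36). In neither gene did the intervals of the libraries overlap. Thinned shares of NK cells with a UMI were 4.64% (2.14 to 8.62%) and 10.6% (7.36 to 14.6%) for Tcf7, and 7.22% (4.00 to 11.8%) and 12.9% (9.35 to 17.2%) for Lef1, at medians of 7852 and 6283.5 UMIs per cell. Monocytes, as background, held 3.08% and 0% for Tcf7, the 0 allowing a share of up to 1.45%, and 4.80% and 1.93% for Lef1. The Vehicle NK share for Tcf7 was thus not far above that of Vehicle monocytes, whose Tcf7 level was lower in Glutoborin, at 23.5 and 7.53 CPM. B cells stood lower than monocytes in both libraries, at 3.39 and 2.16 CPM of Tcf7. The monocyte value is therefore not the lowest level in these libraries, and why it stood above that of B cells was not tested.

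Transcripts of T and B cells were present in the NK class. All 7 T cell markers were detected in both libraries, with a sum of 725 CPM in Vehicle and 846 in Glutoborin, 4 of the 7 lower in Glutoborin. Cd3e, part of the T cell receptor complex, had 19 and 18 UMIs, and Trbc1 alone had 515 UMIs of 1142 in Vehicle and 904 of 1669 in Glutoborin. The 6 B cell markers summed to 921 and 505 CPM, all lower in Glutoborin. Cluster N0, the less mature NK-like cells, had Cd3d and Trac among its leading genes, and N2 was led by B cell genes such as Ebf1. Without N0, N2 and N5 the ratios were 0.97 for Tcf7 and 1.35 for Lef1.

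The libraries also filled the NK clusters unevenly, with 76 Vehicle and 43 Glutoborin cells in the Ifng-led N1 and 16 and 84 in the Cxcr3-led N4. Lef1 was higher in Glutoborin in each of N0 to N4, from 0.06 (-0.87 to 1.05) in N0 to 2.32 (0.61 to 4.70) in the mature NK-like N3, where 3 and 25 UMIs were counted. Tcf7 was higher in N1, at 15.7 and 52.7 CPM, but lower in N4, at 79.2 and 54.9 CPM from 10 and 31 UMIs. With the same cluster weights in both libraries the NK ratio of Tcf7 was 0.38, no longer 1.5-fold, whereas that of Lef1 was 0.99. With called doublets kept, Tcf7 was at 0.53, again under 1.5-fold. Mature NK-like cells had 0 and 1 Tcf7 UMIs, in 27 and 55 cells.

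**Figure D3:**
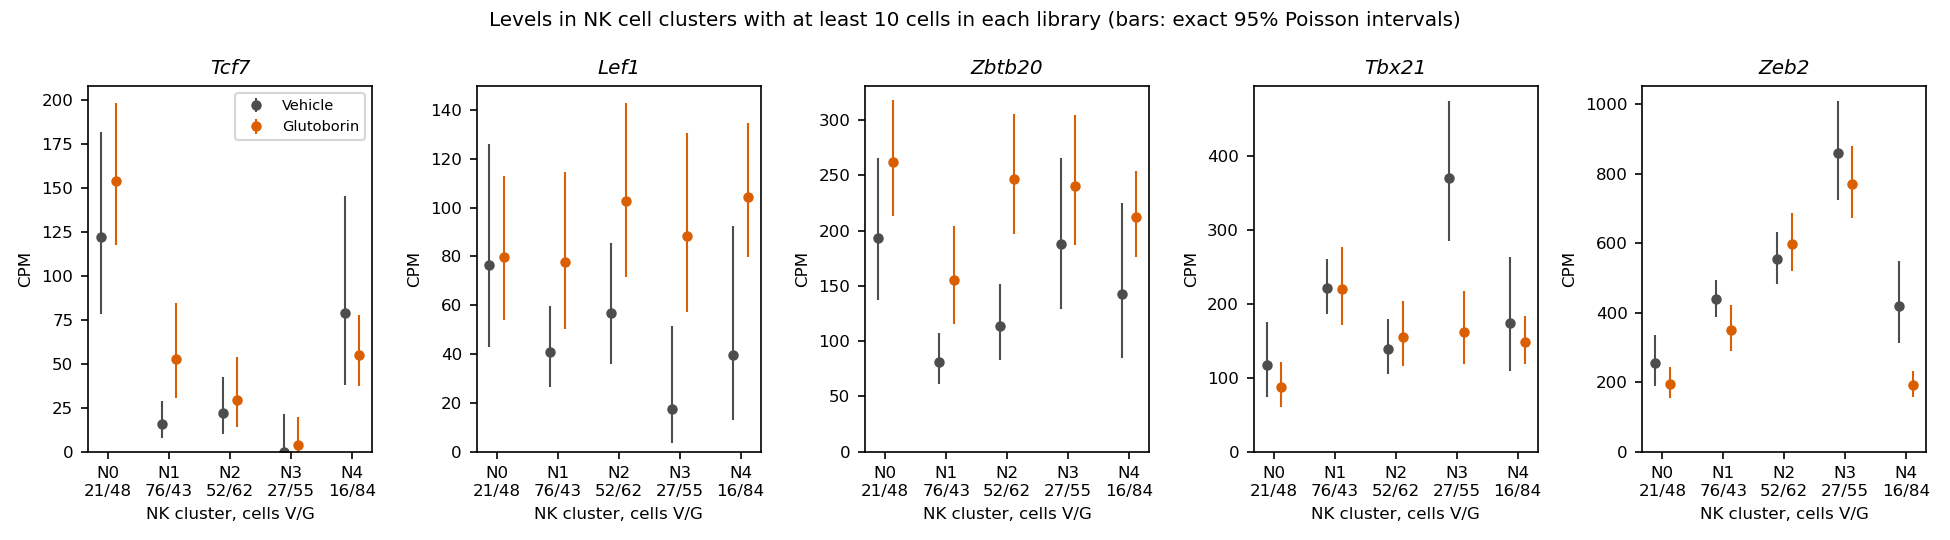
CPM (y axis) of 5 factors in NK clusters N0 to N4 (x axis, with Vehicle and Glutoborin cell numbers), with exact 95% Poisson intervals as bars. Zbtb20 and Lef1 are higher in Glutoborin in each of the 5 clusters, Tcf7 is highest in N0, and of the 5 clusters Tbx21 differs by the largest ratio in N3, at 370.7 against 162.6 CPM. The interval of the ratio reached no difference for Zbtb20 in N0, N3 and N4 and for Lef1 in N0.

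B cells held little Tcf7, 66 Vehicle and 54 Glutoborin UMIs, or 3.39 and 2.16 CPM and a log2 ratio of -0.65 (-1.20 to -0.11). The thinned share with a UMI, 0.695% and 0.613%, was under the 3.08% of Vehicle monocytes. In Glutoborin monocytes it was 0%, which allows up to 1.45%, so the B cell shares are not shown to stand above background. The 7 T cell markers together were also lower in Glutoborin B cells, each of the 7, from 89 to 58.2 CPM in sum, and their part in the Tcf7 value was not tested. After thinning the Tcf7 ratio was -0.09.

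The partners of TCF1 and LEF1, beta-catenin (Ctnnb1), the Groucho corepressors of the Tle group and others, were close to level. Of 12 listed, 11 had a row in the feature lists. None of the 9 measured in B cells, the 10 in CD4, the 10 in CD8 and the 6 in regulatory T cells differed by 1.5-fold. Of all genes measured in these classes 5.8%, 5.63%, 4.87% and 7.9% did. With so few genes listed, none past that fold is not particular to these partners. In NK cells 1 of 7 differed by 1.5-fold, the corepressor subunit Hdac3, at 44 and 31 UMIs and -0.83 (-1.54 to -0.13). Of all genes measured in NK cells 11.3% did. Axin2, a target of Wnt signalling, had ratios of -0.12 (-0.49 to 0.26) in CD4 and -0.22 (-0.65 to 0.22) in CD8 T cells.

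The 250 bases before annotated starts of Lef1 and Zbtb20 are shown because these genes were higher together in NK cells, and because Lef1 has an internal start. Sequences are from RefSeq on GRCm38.p6, read 5′ to 3′ on the gene's plus strand. Capitals mark the letters CTTTGA (bound by TCF1 and LEF1) or CCACCC (bound by KLF factors), searched on both strands, so that TCAAAG and GGGTGG also count.
Lef1, chr3:131110047-131110296, upstream of the gene: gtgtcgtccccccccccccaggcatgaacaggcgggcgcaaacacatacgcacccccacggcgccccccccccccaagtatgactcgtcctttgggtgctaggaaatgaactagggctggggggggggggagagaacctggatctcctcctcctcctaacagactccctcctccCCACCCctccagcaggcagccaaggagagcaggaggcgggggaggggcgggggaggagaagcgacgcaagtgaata
Lef1, chr3:131156044-131156293, in an intron: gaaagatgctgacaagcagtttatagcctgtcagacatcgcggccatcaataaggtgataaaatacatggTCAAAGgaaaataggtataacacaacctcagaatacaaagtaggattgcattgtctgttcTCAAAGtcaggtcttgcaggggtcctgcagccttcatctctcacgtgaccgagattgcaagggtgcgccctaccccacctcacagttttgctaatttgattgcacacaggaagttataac
Zbtb20, chr16:43247034-43247283, in an intron: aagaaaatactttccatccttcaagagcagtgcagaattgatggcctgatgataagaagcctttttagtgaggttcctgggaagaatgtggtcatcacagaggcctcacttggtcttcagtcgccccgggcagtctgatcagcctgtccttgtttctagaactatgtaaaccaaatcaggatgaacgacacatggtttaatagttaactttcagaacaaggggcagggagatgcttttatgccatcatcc
The internal Lef1 window held TCAAAG at 2 places, the upstream window held CCACCC at 1 place, and the Zbtb20 window held none of the letters searched.

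All 10 members matched the promoter table, with 17 windows in all since Tcf7, Lef1 and Zeb2 have several starts. CTTTGA was in 2 of the 17 windows and in 13.8% of all 32851 windows of the same length. CCACCC was in 8 of 17, 2 of them overlapping Lef1 windows that hold the same copy, and in 28.1% of all, the E-box CAGGTG in 1 of 17 (Tbx21) and in 17.2%, and the interferon response element in 1 of 17 (Eomes) and in 2.98%. The T-box letters GGTGTGA were in none of the 17 and in 3.33% of all windows. A match describes letters, not a bound site. The Id3 window is not printed, since all 250 of its bases lie in a UTR of GENCODE release M21.

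The T-box factors separated NK cells, CD8 T cells and NKT-like cells. Eomes (ENSMUSG00000032446, chromosome 9, 118478212 to 118486132, plus strand) was highest in NK cells, at 209.4 CPM in Vehicle and 247.8 in Glutoborin, and in the Myb and Sox4 CD8 cluster, at 135 and 235.2. In NKT-like cells no Eomes UMI was counted in 85 Vehicle and 107 Glutoborin cells, counts of 0 that allow up to 3.53% and 2.80% of cells with a UMI. The same cells held Tbx21 at 62.6 and 80.3 CPM. Within CD8 T cells the memory subset, named without these genes, stood at 62.5 and 90.2 CPM of Eomes and the naive subset at 28.9 and 28.0.

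Eomes was a little higher in Glutoborin over the CD8 T and NK classes, but not in naive CD8 T cells. The CD8 T ratio was 0.36 (0.15 to 0.57), from 291 and 494 UMIs, and 0.14 when clusters were drawn at resolution 0.8. It was 0.53 (0.19 to 0.88) in memory CD8 T cells and -0.05 (-0.41 to 0.32) in naive ones. The Myb and Sox4 cluster reached 0.80 (0.37 to 1.24), with 68.6% and 75.4% of its Eomes UMIs in 10 cells. NK cells gave 0.24 (0.04 to 0.45). B, CD4 and regulatory T cells had at most 18 Eomes UMIs in a library and were not measured.

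Tbx21 (ENSMUSG00000001444, chromosome 11, 97098071 to 97115331, minus strand), the factor of type 1 effector cells, was highest in NK cells, at 199.2 CPM (177.8 to 222.5) in Vehicle and 152 (135.3 to 170.2) in Glutoborin. The log2 ratio was -0.39 (-0.62 to -0.16), under 1.5-fold, and -0.70 after thinning. Over the whole class its direction was opposite to that of Eomes. Within clusters this did not hold throughout, as both were lower in N0 and N3 and both higher in N2. Of the NK clusters the mature NK-like N3 had the lowest Tbx21 ratio, -1.19 (-1.77 to -0.62), at 370.7 and 162.6 CPM from 63 and 46 UMIs in 27 and 55 cells. In N1 and N2 the ratios were -0.01 and 0.17, both within counting error. Memory CD8 T cells had 28.0 and 30.1 CPM of Tbx21, a ratio of 0.10 (-0.44 to 0.66).

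In B cells Tbx21 had 64 Vehicle and 35 Glutoborin UMIs, 3.28 and 1.40 CPM and a ratio of -1.23 (-1.87 to -0.61). Of these UMIs, 37 in Vehicle and 7 in Glutoborin lay in cluster B13, led by Ncl, Mif and Srm, and without that cluster the ratio was -0.37. Thinned shares of B cells with a Tbx21 UMI were 0.377% and 0.297%, beside 0.343% and 0.966% of monocytes. Cluster B13 on its own stood at 15.9 and 3.6 CPM, against 1.81 and 2.51 CPM in monocytes. The 48 Vehicle B cells with a Tbx21 UMI had fewer T and NK marker transcripts than the other B cells, at 54.2 against 89.8 CPM and 41.2 against 49.4 CPM. They also had fewer B marker transcripts, at 15190 against 22430 CPM, and more dividing marker transcripts, at 49.9 against 31.9 CPM. Their median depth was 6695 UMIs against 4716.5. The source of their Tbx21 UMIs was not tested.

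Zeb2 (ENSMUSG00000026872, chromosome 2, 44983632 to 45117395, minus strand) was an NK and B cell gene here and nearly missing from T cells. NK cells stood at 479.7 CPM in Vehicle and 368.9 in Glutoborin, and mature NK-like cells at 859.1 and 770.5. The CD4 T class held 9 and 6 UMIs and the CD8 T class 15 and 23. Monocytes, which express Zeb2, stood at 773.3 and 662.9 CPM. The annotated antisense gene Zeb2os held 393 and 400 UMIs over all kept cells, and the strand setting of the counting was not given in the sources used here.

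Zeb2 was lower in the Glutoborin NK and B cell classes, but higher in dividing NK cells, which are not in the NK class. The NK ratio was -0.38 (-0.53 to -0.23), -0.19 at resolution 0.8, and -0.14 without N4, the cluster in which Zeb2 stood at 419.7 and 193.1 CPM. The B cell ratio was -0.40 (-0.48 to -0.31), from 2550 and 2488 UMIs. The unnamed B clusters gave the lowest subset value at -0.78 (-0.96 to -0.61), and B-1 cells the highest at 0.23 (-0.13 to 0.59). On their own the unnamed clusters gave -0.58 in B10, -0.67 in B14 and -0.08 in B16. Part of their summed difference therefore lay in the mix of clusters. Of 17 B clusters with enough UMIs, 13 were lower and 4 higher. Dividing NK cells had 155.5 and 224 CPM of Zeb2, a ratio of 0.53 (0.20 to 0.86).

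The direction in which effector genes known to act with T-box factors differed varied by class. In NK cells 20 of 22 were measured, 1 was at least 1.5-fold higher and 3 lower, with a median of -0.08. Over all measured genes in NK cells 6.35% were higher and 4.96% lower, so the count of higher genes was near the share over all genes. The chemokine receptor Cxcr3 was higher at 1.05, from 62 and 161 UMIs, and the protease Gzmb was lower at -0.76 (-0.85 to -0.66), the fractalkine receptor Cx3cr1 at -0.92 (-1.34 to -0.50) and interferon gamma (Ifng) at -0.67 (-0.85 to -0.48). In CD8 T cells 2 of 14 were higher and none lower, among them the chemokine Ccl5 at 0.88 (0.82 to 0.95). In B cells 4 of 15 were lower, among them Gzmb with 58 and 28 UMIs. In CD4 T cells 3 of 12 were lower, and in regulatory T cells 2 of 8 were higher and 1 lower. Over all measured genes 3.33% were lower in B cells and 3.08% in CD4 T cells. In CD8 T cells 1.89% of all genes were higher, and in regulatory T cells 2.67% were higher and 5.24% lower.

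Among other NK cell transcription factors 1 of 12 measured in NK cells differed by 1.5-fold, Irf8, at 1574 and 1189 UMIs and -0.73 (-0.84 to -0.62). Of all genes measured in NK cells 11.3% differed by as much. In CD8 T cells the orphan receptor Rora was higher at 0.80 (0.25 to 1.37), 1 of 10 measured, beside 1.89% of all genes. The list's median was 0.22 in NK and -0.17 in CD8 T cells.

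Zbtb20 (ENSMUSG00000022708, chromosome 16, 42875881 to 43642602, plus strand) was highest in B-1 cells, at 829.9 CPM in Vehicle and 656.1 in Glutoborin, and next in marginal zone B cells, at 350.5 and 238.1. Every other of the 14 subsets was at or under 221 CPM in both libraries, while the NK clusters N0, N2 and N3 on their own reached 261.9, 246.5 and 240.3 CPM in Glutoborin. In the thinned B-1 cells 68.5% and 56.1% held a UMI. B, CD4 and CD8 T cells were lower in Glutoborin by similar amounts, with ratios of -0.28 (-0.35 to -0.22), -0.29 (-0.44 to -0.14) and -0.24 (-0.40 to -0.08). Marginal zone B cells gave -0.56 (-0.70 to -0.42) and B-1 cells -0.34 (-0.50 to -0.18).

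NK cells went the other way. Zbtb20 stood at 124.4 CPM (107.6 to 143) in Vehicle and 221 (200.7 to 242.7) in Glutoborin NK cells, from 196 and 436 UMIs, a ratio of 0.83 (0.58 to 1.08). Thinned shares with a UMI were 22.2% (16.5 to 28.7%) and 35.8% (30.4 to 41.4%), and 7.88% and 9.18% in monocytes. It was higher in each of N0 to N4, from 0.35 (-0.27 to 1.01) in N3 to 1.11 (0.58 to 1.67) in N2, the cluster led by B cell genes. The intervals of the ratio reached no difference in N0, N3 and N4. Zbtb20 was lower in N5, with 10 and 12 UMIs in 5 and 10 cells. The class ratio was 0.70 with the same cluster weights in both libraries. The B cell markers, as given above, were lower in Glutoborin NK cells. NKT-like cells showed a like ratio of 0.95 (0.30 to 1.61), from 33 and 55 UMIs, and dividing NK cells 0.73 (0.19 to 1.28).

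Bach2 (ENSMUSG00000040270, chromosome 4, 32238804 to 32586108, plus strand) differed little between the libraries in each class. B cells stood at 149.8 CPM and 145.9 CPM, a ratio of -0.04 (-0.11 to 0.03). The ratio was 0.08 (-0.08 to 0.25) in CD4, -0.00 (-0.19 to 0.19) in CD8 and 0.25 (-0.31 to 0.82) in regulatory T cells. Follicular B cells (165.4 and 168.6 CPM) and the unnamed B clusters (182.8 and 162.2) were the highest subsets, with intervals that overlapped in both libraries. Naive CD4 T cells, at 118.6 and 123, stood above activated or memory CD4 T cells, at 28.5 and 51.0. B-1 cells had a lower Bach2 level in Glutoborin, with 93.3 and 58.2 CPM and a ratio of -0.68 (-1.22 to -0.15) from 75 and 53 UMIs. Activated or memory CD4 T cells at 0.84 (-0.04 to 1.77) and dividing T cells at 0.68 (-0.03 to 1.38) lay past 1.5-fold the other way, both with intervals that reached no difference.

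Klf2 (ENSMUSG00000055148, chromosome 8, 72319033 to 72321656, plus strand) was broad, and low in few subsets. Naive CD8 T cells stood at 949.5 CPM in Vehicle and 828.3 in Glutoborin, NK cells at 932.1 and 844.8 and B-1 cells at 866 and 784.6, and which subset ranked first changed with the clustering. NKT-like cells were lowest, at 141.3 and 133.9, with dividing B cells at 229.6 and 190.7 and marginal zone B cells at 335.1 and 229.4. Mature NK-like cells stood at 1471 and 1329 CPM and less mature ones at 479 and 434. The class ratios lay between -0.19 (-0.24 to -0.14) in CD8 T cells and -0.04 in B and CD4 T cells. Marginal zone B cells had a lower value of -0.55 (-0.69 to -0.41), and the Myb and Sox4 CD8 cluster -0.61 (-0.85 to -0.37).

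Genes of naive and resting lymphocytes, among them Klf2's known target S1pr1, were mostly level. None of 21 measured in CD8 T cells and none of 17 in NK cells passed 1.5-fold. S1pr1, the receptor for exit from lymphoid organs, had a CD8 ratio of -0.23 (-0.35 to -0.11). In CD4 T cells 1 of 21 was higher, Myb at 0.64 (0.20 to 1.08), beside 2.56% of all genes. In B cells 2 of 21 were lower, the T cell genes Dapl1 and Bcl11b, at 75 and 50 and at 59 and 47 UMIs, and in regulatory T cells 3 of 18 were lower. Over all measured genes 3.33% were lower in B cells and 5.24% in regulatory T cells. Of the B cell transcription factors 1 of 21 passed 1.5-fold in B cells, Mef2b at 0.61 (0.07 to 1.16), beside 5.8% of all genes. The list's median was 0.07.

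**Figure D4:**
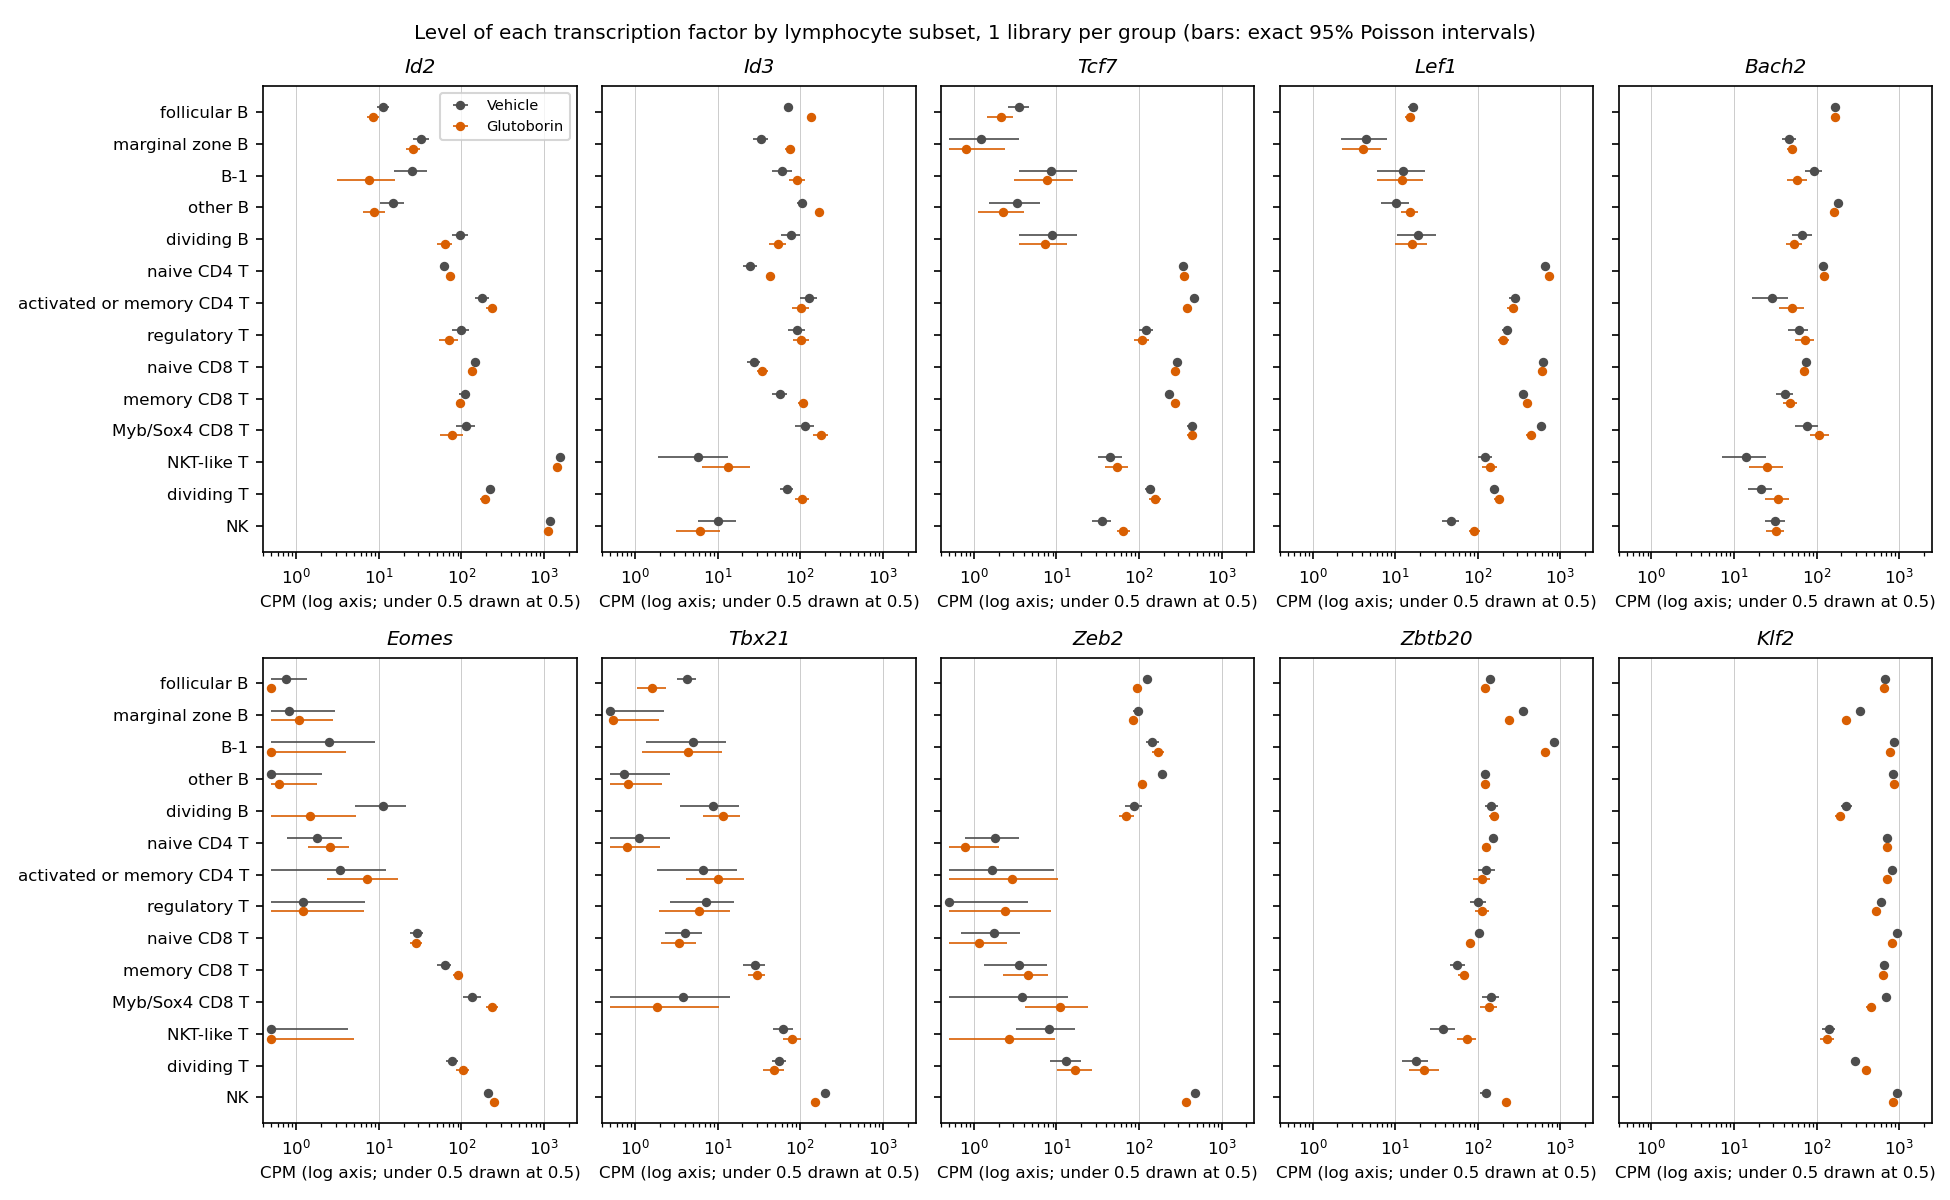
Level of each factor (panels, CPM on a log axis) in 14 lymphocyte subsets (rows), with 1 point per library and exact 95% Poisson intervals as bars. Tcf7 and Lef1 separate T cells from B cells, Zeb2 is high in B and NK cells and near 0 in T cells, Id2 peaks in NKT-like cells at 1579 and 1428 CPM, and Zbtb20 in B-1 cells at 829.9 and 656.1.

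Pairs of factors were also read within single cells, each thinned to 2000 UMIs. Among thinned CD8 T cells with a Tcf7 UMI, 69.1% of Vehicle and 63.9% of Glutoborin cells also held Lef1, against 63.3% and 63.0% of those without Tcf7. Id2 was found in 19.6% and 18.7% of the Tcf7-bearing and in 21.3% and 17.2% of the other CD8 T cells. In memory CD8 T cells Tcf7 was found in 2 of 18 Vehicle and 12 of 43 Glutoborin cells with Eomes. These shares, 11.1% and 27.9%, stood against 38.9% and 42.3% of cells without it. Over all CD8 T cells the shares were nearer, at 38.2% and 35.7% with Eomes against 43.7% and 43.1% without. The Myb and Sox4 cluster had 63.6% and 46.7% with Eomes, from 11 and 15 cells, against 43.5% and 58.7% without. In that cluster and in naive CD8 T cells, Vehicle was higher with Eomes and Glutoborin lower. In NK cells Zeb2 was found in 64.6% and 50% of cells with Tbx21 and in 50.4% and 41.2% of cells without. A gene without a UMI at this depth is not shown to be off, and cells of 1 library are not replicates.

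The genes whose levels over the 14 subsets were most like each factor's were taken by Pearson r among 4358 genes with at least 50 CPM in a subset. For Tbx21 they were Il18rap (0.969), Klrk1 (0.967) and Ifng (0.962), and for Eomes Crtam (0.919), Ctla2b (0.907) and Xrn2 (0.882). For Id2 they were D16Ertd472e (0.939), Dok2 (0.927) and AW112010 (0.927). For Lef1 they included Saraf (0.973) and Tcf7 (0.972), and for Tcf7, after Lef1, Saraf and Gtf2i (both 0.965). Zeb2 was most like Lat2 (0.976), Irf8 (0.972) and Plcg2 (0.94), and Klf2 most like Rasa3 (0.938), Ripor2 (0.897) and Arhgef18 (0.888). Bach2 was most like Cxcr4 (0.886), Sfswap (0.871) and Tsc22d3 (0.87), Zbtb20 most like Pcmtd1 (0.891), Aff1 (0.881) and Eps15 (0.844), and Id3, the least matched, most like Trim59 (0.787), Cd200 (0.769) and Gm8369 (0.755). With 14 points from 2 libraries these values describe likeness only.

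Further lists are given beside these results. Over all measured genes 3.33% were at least 1.5-fold lower in Glutoborin B cells, 3.08% in CD4, 2.99% in CD8 and 5.24% in regulatory T cells. In NK cells 4.96% were lower and 6.35% higher. Immediate early and activation genes, which respond to handling as well as to antigen, were at least 1.5-fold lower in Glutoborin for 4 of 14 measured in B cells, 1 of 12 in CD4, 3 of 12 in CD8 and 1 of 12 in regulatory T cells, and 1 of 11 was higher in NK cells. Heat shock genes were lower for 3 of 7 in B cells, 0 of 6 in CD4, 1 of 6 in CD8, 2 of 6 in regulatory T and 3 of 6 in NK cells. Transcripts of plasma, myeloid and red cells, a sign of free RNA, were lower in Glutoborin for 5 of 6 measured in B cells, 5 of 5 in CD4, 5 of 5 in CD8, 2 of 2 in regulatory T and 2 of 3 in NK cells. The list includes the light chain gene Igkc, which B cells transcribe themselves, so in B cells that gene is no sign of free RNA. The part of these lists in the factors' values was not tested.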

How the data were processed

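The authors deposited UMI counts as whole numbers, 1 matrix a library, not normalized. Cell Ranger 6.1.2 wrote them, per the file headers. The submitters' processing notes name Cell Ranger 6.0.1 as well as Seurat 4.3.0 and mm10. An annotation release was not given in the sources used here. GENCODE matching covered 32235 of 32285 identifiers, in release M21 on GRCm38, the source of gene positions.

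Cells with at least 500 UMIs, 300 genes and under 10% mitochondrial UMIs were kept, and Scrublet doublets (195 Vehicle, 347 Glutoborin) were left out. Both libraries were clustered together (scanpy 1.11.5, 2000 variable genes without the members and without interferon, cell cycle, heat shock and receptor genes, 30 components, 15 neighbours, Leiden resolution 1.5), B and T clusters a second time and NK cells with 500 genes and 10 components. Clusters were named from marker lists. The naming limits and the NK settings were set after the clusters were seen. Dividing clusters were kept out of the B, CD4 T, CD8 T and NK classes.

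UMIs were summed per class or subset and library. Sums carry exact Poisson intervals, ratios the exact interval of a ratio of Poisson counts, and shares exact Clopper-Pearson intervals, all at 95%. UMIs of a 3' assay are molecules, but the intervals cover counting error only. Shares of 0 carry the limit of 3 counts. Simulated counts with 2-fold changes were called past 1.5-fold for 99.5% of 195 changed genes in B cells (10618 genes) and 94.7% of 187 in NK cells (6469 genes). Of the unchanged genes 0.998% in B cells and 3.68% in NK cells also passed 1.5-fold. The counts were drawn with counting error only, as the intervals assume, so they cannot show how calls fare with spread between animals. Named were all 10 members in each class and subset with 50 cells in each library, the 3 genes most like each, and, of each list and class, up to 4 genes past 1.5-fold by the interval bound nearest to no difference, or else the highest and the lowest. NK clusters, dividing NK cells and cluster values outside that rule were chosen after their values were seen. The members and lists were chosen with earlier results of these data known. Some genes that these rules name are not reported here.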

Additional observations from a re-analysis of the deposited data

How the results depend on the processing

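The Id3 ratio in B cells, 0.88, lay between 0.67 and 0.91 over 12 alternatives, each at least 1.5-fold. It was 0.67 with the same cluster weights in both libraries, an alternative added after seeing the data, and there the mix of clusters is what was changed. The count of 7 pairs past 1.5-fold became 4 with those weights and 1 at 2-fold, and was within 1.5 times of 7 under the other alternatives run. Of 484 single values recomputed for the 40 other pairs, 458 stayed within the main value's counting interval, 24 moved beyond it, and 2 whose main interval excluded no difference changed sign: Klf2 in B cells was 0.0063 without the clusters with interferon-inducible leading genes (added after seeing the data), and Id2 in CD4 T cells was -0.12 at a mitochondrial limit of 25%. A further 34 values, counted among the 458 and the 24, changed sign where the main interval spanned no difference, among them Tbx21 in CD8 T cells, which kept its sign in 3 of 11 alternatives and was -0.43 after thinning. The cause of these was not tested. Lef1 and Zbtb20 in NK cells were past 1.5-fold under all 15 alternatives run, Tcf7 in NK cells under 13 of 15, Id3 in CD8 T cells under 7 of 11, Tbx21 in B cells under 10 of 12 and Tcf7 in B cells under 9 of 12. The subset with the highest level was the main one for 7 of the 10 members at a mitochondrial limit of 25%, 8 with called doublets kept, 7 at resolution 0.8 and 9 with members among the variable genes. No paired analysis was possible because each group is 1 library. Depth limits Eomes, Tbx21 and Zeb2 in CD4 and regulatory T cells, which were under 50 UMIs, and the NK clusters of 16 to 27 Vehicle cells.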
